A study of Mus musculus with 12 samples.

Results

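The genes described here encode the subunits of the BAF (SWI/SNF) chromatin remodeling complex that are exchanged when neural progenitors become neurons. They were chosen by name as 10 members, all 10 of which were found among the 24091 genes of the expression table. Actl6a, Phf10, Dpf2 and Ss18 stand for the progenitor form of the complex or its shared counterparts, and Actl6b, Dpf1, Dpf3 and Ss18l1 for the neuronal form. The ATPases Smarca4 and Smarca2 complete the set.

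BAF complexes use the energy of ATP to move or evict nucleosomes and so open regulatory DNA. In neural progenitors the complex carries the actin-related protein BAF53a (Actl6a), the PHD-finger protein BAF45a (Phf10) and SS18, and as cells leave the cell cycle these give way to BAF53b (Actl6b), BAF45b and BAF45c (Dpf1 and Dpf3) and CREST (Ss18l1). BAF45d (Dpf2) is a widely expressed relative of the BAF45 proteins, and both ATPases, BRG1 (Smarca4) and BRM (Smarca2), occur in progenitor and neuronal complexes. The microRNAs miR-9* and miR-124 repress Actl6a in differentiating neurons, and the repressor REST keeps those microRNAs low in cells that are not neurons.

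Expression was measured by poly(A) RNA sequencing in 12 mouse samples of 4 groups. The 3 medulloblastomas came from mice labelled Brca2-mut;Trp53-mut (GB344, GB359 and GB370), and adjacent cerebellum was taken from the same 3 mice. Control cerebella came from 3 Brca2-mut;Trp53-WT mice (GB361, GB508 and GB512) and 3 Brca2-WT;Trp53-mut mice (GB517, GB519 and GB520). In the study's mice Brca2-mut is a conditional loss of exons recombined in the central nervous system by hGFAP-Cre, while Trp53-mut is a knockout in the whole animal, so every control carries a lesion in either gene and none is wild type for both. The labels give no ages, while the study describes its normal cerebellum as adult and matched in age to the tumors. Values are TPM (transcript abundances scaled to the same total in every sample), which are adjusted for transcript length, so the levels of different genes can be set side by side; the read depth behind them is unknown.

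The tissue labels were checked against marker genes. Summed over 6 granule progenitor markers, tumors held 1918 to 2318 TPM and controls 29.7 to 48.6 TPM, and all 6 markers were called higher in tumors. Summed markers of Purkinje cells were 49.9 to 266 TPM in tumors and 4263 to 7236 TPM in controls, and those of inhibitory interneurons were 94.9 to 185 TPM and 1945 to 2833 TPM; all 5 markers of each list were called lower. Glial and granule neuron markers moved as well. Oligodendrocyte markers summed to 145 to 335 TPM in tumors and 2628 to 4075 TPM in controls (3 of 5 called lower, 1 higher). Astroglial markers summed to 241 to 450 TPM and 1251 to 1528 TPM (4 of 5 lower). Granule neuron markers summed to 917 to 1696 TPM and 3194 to 4172 TPM (5 of 8 called lower). At a limma adjusted p under 0.05, 1 of these 8 markers was higher. Microglial markers were higher in sum, at 179 to 270 TPM against 69.8 to 139 TPM. Of these 5 markers, 2 were called higher and 1, P2ry12, was lower at a limma adjusted p under 0.05. C1qa alone was at 128 to 189 TPM in tumors and 31.3 to 82.9 TPM in controls. Endothelial sums overlapped, with 1 of 4 markers called lower and 2 higher at a limma adjusted p under 0.05. Choroid plexus sums varied among the controls. The part of these cell types in the subunit levels was not tested. Adjacent cerebellum was not free of progenitor markers: their sum was 659 TPM in GB344, 530 TPM in GB359 and 79.8 TPM in GB370, all above every control. Neither mutated gene verifies the labels at the level of whole genes. Brca2 was at 3.4 to 3.79 TPM in the Brca2-mut;Trp53-WT and 3.24 to 4.40 TPM in the Brca2-WT;Trp53-mut cerebella, and Trp53 was at 33.1 to 37.2 TPM and 47.1 to 49.4 TPM in the same groups, higher in the samples labelled Trp53-mut; transcripts of the remaining exons may be counted, so these sums do not test the deletions. In bulk tissue, fewer cells of a type and less RNA per cell cannot be told apart.

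Actl6a, the member that rose most in tumors, is shown first with the sequence through which miR-9* (listed as mmu-miR-9-3p) can pair with its transcript. The mature microRNA is the same at all 3 of its loci in RefSeq (GRCm38.p6, chromosomes 3, 7 and 13), and its seed, bases 2 to 8, is in capitals. In the 3′ UTRs of GENCODE M21 transcripts (GRCm38, 1 transcript per gene), the reverse complement of the seed occurred in 2 of the 10 members, Actl6a and Smarca2. It is in capitals in 30-base stretches of their 3′ UTRs, at chr3:32726628-32726657 for Actl6a and chr19:26777490-26777519 for Smarca2, both on the plus strand.
mmu-miR-9-3p: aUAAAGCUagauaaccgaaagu
Actl6a 3′ UTR: ctcaacgtctgtAGCTTTAgtacactcagg
Smarca2 3′ UTR: tcatctagaactAGCTTTAgggtagtgcca
The same 7 bases were found in 2091 of 20355 3′ UTRs (10.3%). The match is a description of the letters only; microRNA levels are not part of these data.

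Promoter sequence was read for the members with the largest rise and the largest fall, to show what their starts look like. The stretches below end 40 bases before the RefSeq start of Actl6a (chr3:32708296-32708506, plus strand, 211 bases, cut short of an annotated exon) and at the start of Dpf3 (chr12:83487737-83487986, minus strand, 250 bases), in GRCm38.p6. CG dinucleotides are in capitals, 16 in each stretch.
Actl6a promoter: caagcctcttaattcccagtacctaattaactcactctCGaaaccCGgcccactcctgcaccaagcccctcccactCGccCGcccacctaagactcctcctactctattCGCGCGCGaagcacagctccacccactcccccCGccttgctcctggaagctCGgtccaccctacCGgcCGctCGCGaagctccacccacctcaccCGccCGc
Dpf3 promoter: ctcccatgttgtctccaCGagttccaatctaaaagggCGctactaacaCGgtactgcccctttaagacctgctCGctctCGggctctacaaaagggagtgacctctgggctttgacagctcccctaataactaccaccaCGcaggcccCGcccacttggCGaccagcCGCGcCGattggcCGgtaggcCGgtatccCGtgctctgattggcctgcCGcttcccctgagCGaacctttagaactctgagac
Over the full 250 bases before each start, the promoters of 9 members held 15 to 51 CG dinucleotides, against a median of 6 over 32851 RefSeq promoters. That median was not limited to genes expressed in these samples, as the members were. For Actl6b, Dpf1, Smarca2 and Smarca4 the start used lay inside the annotated gene. Exons of other genes covered 156 bases of the Ss18l1 window (Psma7) and all 250 of the Dpf2 window (Gm42067). These 9 windows were searched on both strands for E2F sites (TTTCCCGC, in 0.895% of all promoters, and TTTGGCGC, in 0.417%), a GLI site (TGGGTGGTC, 0.225%), the E-boxes CAGCTG (13%) and CAGATG (14.4%), and the left part of the REST element (TTCAGCACC, 0.301%). None of these was found except CAGCTG, once, 180 bases before the start of Phf10. No match says only that these letters are absent from these windows.

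Tumors were first compared with the 6 control cerebella, which asks how the subunits differ between medulloblastoma and cerebellum without tumor. A gene was called when its adjusted p in limma was under 0.01 and it differed by at least 1, up or down, on the scale of log2(TPM + 1). By this rule 4 of the 10 members were called. Actl6a and Ss18 were higher, beside 14.4% of all tested genes, and Dpf3 and Smarca2 were lower, beside 21.5%. With an adjusted p under 0.05 and no fold minimum, all 10 passed: Actl6a, Phf10, Dpf2, Ss18 and Smarca4 were higher (31.8% of all genes) and Actl6b, Dpf1, Dpf3, Ss18l1 and Smarca2 lower (39.5%). In direction, Actl6a, Phf10 and Ss18 of the progenitor form were higher and 4 of 4 neuronal subunits lower. Dpf2, which marks neither form, was higher as well. The median log2 difference was 1.02 over Actl6a, Phf10, Ss18 and Dpf2 and -0.62 over the 4 neuronal subunits, beside -0.11 over all genes tested. RNA levels do not show which form of the complex was present.

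Actl6a, the progenitor actin-like subunit, was at 116 TPM in tumor GB344, 109 TPM in GB359 and 123 TPM in GB370. In controls its lowest, median and highest levels were 18.6, 21.9 and 23.7 TPM. The lowest tumor was far above the highest control, and the 3 tumors were close to each other. The log2 difference was 2.38 ± 0.10 (SE, n = 3 and 6; limma adjusted p = 2.35e-08), a ratio of means of 5.40 in TPM. Of the exonic bases of Actl6a, 22.5% overlap Mrpl47 on the opposite strand, and the counting strand is not given in the sources used here. In Phf10, 10.6% overlap 1600012H06Rik, also on the opposite strand, and in every other member 3.78% or less overlap another gene. The part of 1600012H06Rik in the Phf10 level was not tested. Mrpl47 itself was at 46.8 to 58.6 TPM in tumors and 31.6 to 35.2 TPM in controls; its part in the Actl6a level was not tested.

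**Figure D1:**
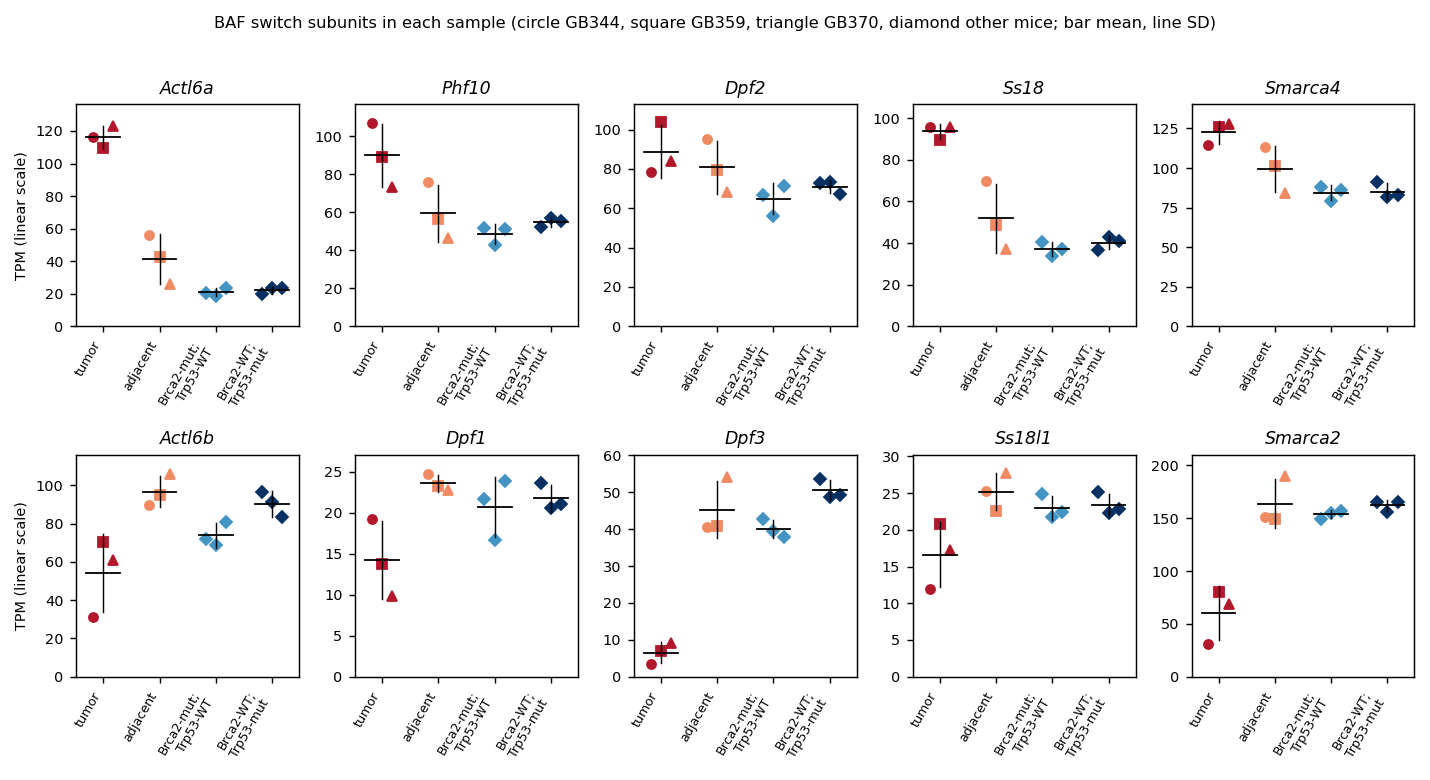
TPM (vertical axis, linear, from 0) of the 10 members in each of the 12 samples, grouped along the horizontal axis by tumor, adjacent cerebellum and the control genotypes; bars are means and vertical lines SDs of 3 samples. Actl6a separates the groups most clearly upward (109 to 123 TPM in tumors, at most 23.7 TPM in controls) and Dpf3 downward (3.42 to 9.09 TPM, at least 38.0 TPM).

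Ss18, the subunit that CREST replaces in neurons, was at 95.7 TPM in tumor GB344, 89.4 TPM in GB359 and 95.9 TPM in GB370. Its controls had a lowest, median and highest level of 33.8, 38.7 and 42.8 TPM, so the groups did not overlap. The log2 difference was 1.26 ± 0.09 (SE, n = 3 and 6; limma adjusted p = 4.19e-07). Phf10, the progenitor BAF45a, was at 107, 89.4 and 73.5 TPM in the same order of tumors and 42.6 to 56.9 TPM in controls, a log2 difference of 0.78 ± 0.12 (SE). Its tumors varied more among themselves than those of Ss18, yet all 3 were above every control. Control GB508 lay apart from the other controls, at the low end, for Phf10 and Dpf2. The levels of Dpf2, the widely expressed BAF45d, lay closer together, at 78.2, 104 and 83.8 TPM in tumors and 56.0 to 73.3 TPM in controls, a log2 difference of 0.38 ± 0.11 (SE; limma adjusted p = 0.0122). Without tumor GB359, which held the highest level, the adjusted p of Dpf2 was 0.0612, and against the Brca2-WT;Trp53-mut controls alone 0.0667. Every tumor was above every control for Actl6a, Ss18, Phf10, Dpf2 and Smarca4, as it was for 28.3% of all genes.

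Among the neuronal subunits, Dpf3 (BAF45c) stood apart from the rest. It was at 3.42 TPM in tumor GB344, 7.09 TPM in GB359 and 9.09 TPM in GB370. Its lowest, median and highest control levels were 38.0, 45.8 and 53.6 TPM. Tumors thus held 0.144 of the mean control level, and the log2 difference was -2.69 ± 0.23 (SE, n = 3 and 6; limma adjusted p = 1.98e-06).

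Actl6b (BAF53b), the neuronal counterpart of Actl6a, was at 31.3, 70.5 and 61.2 TPM in the tumors. In controls it was at 68.7, 82.1 and 96.7 TPM (lowest, median, highest). Tumor GB359 lay within the range of the controls, so the groups overlapped. The log2 difference was -0.66 ± 0.22 (SE; limma adjusted p = 0.0219), and without tumor GB344 it was -0.31 with an adjusted p of 0.0615. Against the Brca2-mut;Trp53-WT controls alone the adjusted p was 0.155.

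Dpf1 (BAF45b) was at 19.3, 13.7 and 9.82 TPM in the tumors and 16.7 to 23.8 TPM in controls. Here GB344, the tumor with the lowest Dpf3 and Actl6b, had the highest level and fell within the controls. The log2 difference was -0.58 ± 0.18 (SE; limma adjusted p = 0.0159), and the adjusted p was 0.0787 without tumor GB370, 0.0580 under quantile normalization, and 0.102 and 0.0501 against the Brca2-mut;Trp53-WT and the Brca2-WT;Trp53-mut controls alone. Ss18l1 (CREST) was at 11.9, 20.7 and 17.2 TPM in the tumors and 21.8 to 25.1 TPM in controls, a log2 difference of -0.49 ± 0.15 (SE; limma adjusted p = 0.0120). Its groups did not overlap, although tumor GB359 lay close to the lowest control, and against a single control genotype its adjusted p was 0.0634 (Brca2-WT;Trp53-mut) or 0.0794 (Brca2-mut;Trp53-WT). Every tumor was below every control for Dpf3, Ss18l1 and Smarca2, as it was for 35.7% of all genes.

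The ATPases moved in opposite directions. Smarca2 (BRM) was at 31.2, 80.0 and 68.5 TPM in the tumors, and at 150, 157 and 165 TPM in controls (lowest, median, highest). All 3 tumors were far below the controls, with GB344 lowest, and the log2 difference was -1.49 ± 0.23 (SE; limma adjusted p = 0.000205). Smarca4 (BRG1) was at 114, 126 and 128 TPM in the tumors and 79.2 to 91.1 TPM in controls, a log2 difference of 0.53 ± 0.07 (SE; limma adjusted p = 7.27e-05) that did not reach the fold minimum. The more abundant ATPase therefore differed between the tissues: Smarca2 ranked first of the 10 members in controls with a mean of 158 TPM, and Smarca4 first in tumors with a mean of 123 TPM.

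**Figure D2:**
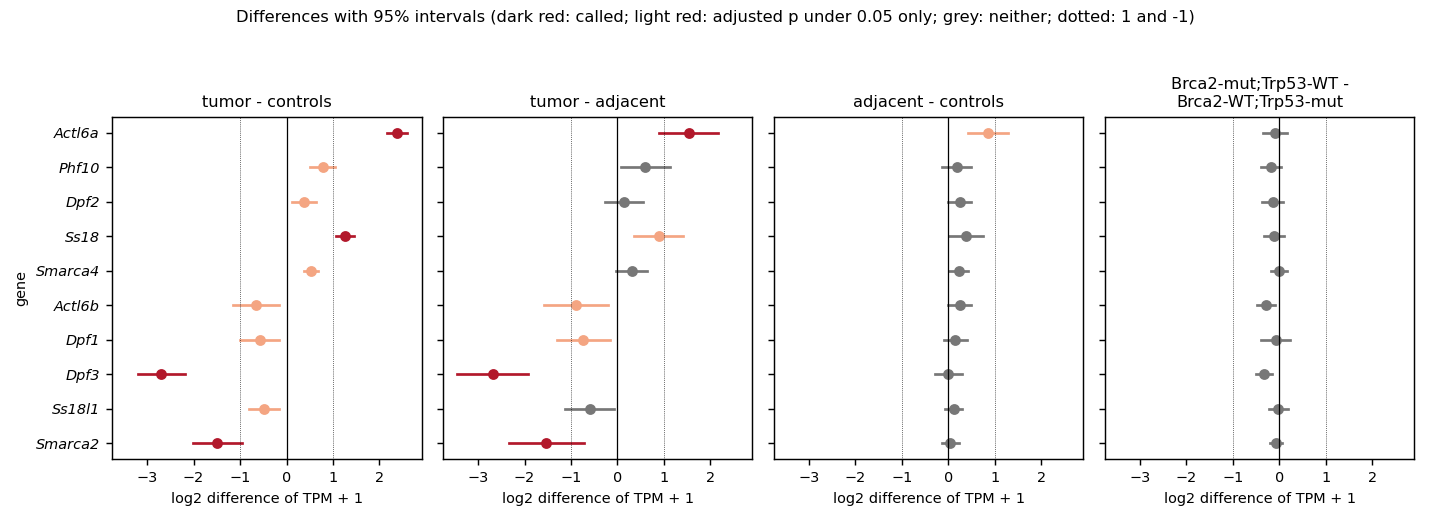
Log2 differences of TPM + 1 (horizontal axis) with 95% intervals for the 10 members (vertical axis) in 4 comparisons, 1 panel each; dark red marks called members, light red those with an adjusted p under 0.05 only, grey the others, and dotted lines the fold minimum. The spread from 2.38 (Actl6a) to -2.69 (Dpf3) in tumors against controls contrasts with the adjacent cerebellum and control genotypes, where every point lies between 0.85 and -0.33.

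Levels within a sample were then set against each other, as a description with no test. Actl6a made up 78.8%, 60.8% and 66.8% of the summed Actl6a and Actl6b in tumors GB344, GB359 and GB370, and 16.9% to 22.4% in controls. Actl6a was thus the larger of the pair in every tumor and the smaller in every control. The summed level of the pair was also higher in tumors, at 147 to 185 TPM against 87.3 to 116 TPM in controls. Of the 4 BAF45 genes together, Dpf1 and Dpf3 held 9.71% to 10.9% in tumors and 33.5% to 38.2% in controls. Ss18 held 81.2% to 89.0% of Ss18 and Ss18l1 in tumors and 59.5% to 65.8% in controls. Smarca4 held 78.6%, 61.1% and 65.1% of the summed ATPases in the tumors and 33.4% to 37.1% in controls.

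Summed over Actl6a, Phf10, Dpf2 and Ss18, tumors held 389 ± 11 TPM (SD, n = 3) and controls 180 ± 15 TPM (SD, n = 6). Summed over Actl6b, Dpf1, Dpf3 and Ss18l1, tumors held 91.7 ± 24 TPM (SD, n = 3) and controls 172 ± 18 TPM (SD, n = 6). The tumors varied more in the neuronal sum than in the first sum, which includes the widely expressed Dpf2. GB344 had the lowest neuronal sum, 65.9 TPM.

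**Figure D3:**
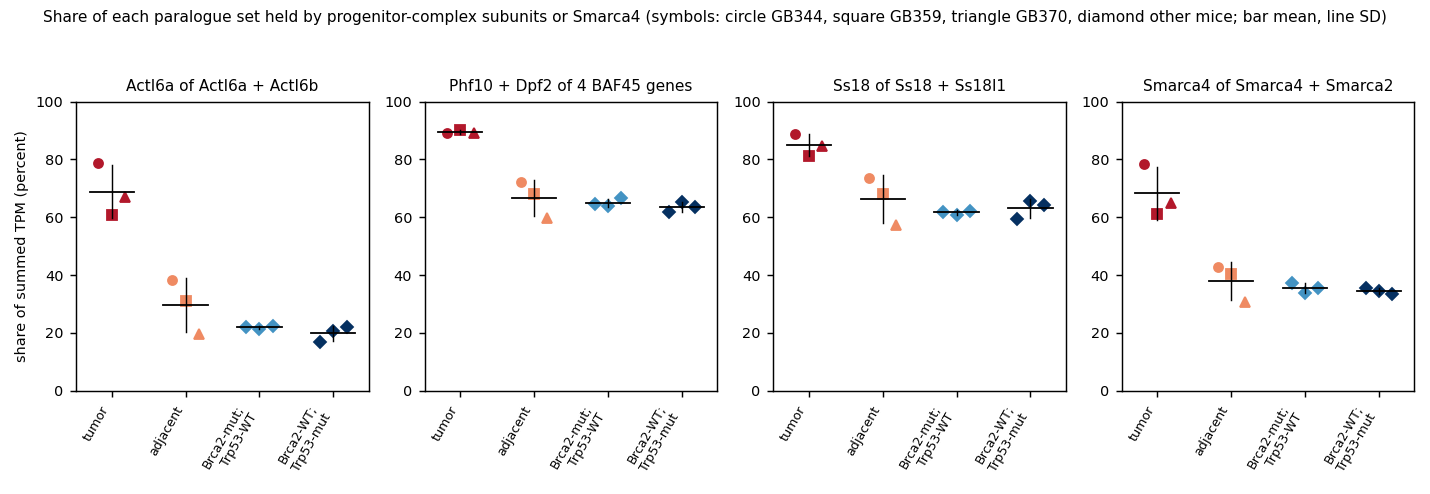
Share in percent (vertical axis, 0 to 100) of each paralogue set held by Actl6a, by Phf10 and Dpf2, by Ss18 and by Smarca4, per sample and group; bars are means and vertical lines SDs of 3 samples. In all 4 panels the 3 tumors lie above every other sample, and adjacent cerebellum of GB370 lies within or below the range of the controls.

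General neuronal markers were set beside the neuronal subunits, as a description with no test of the difference. Over 6 general neuronal markers the median log2 difference between tumors and controls was -2.32, with 4 of 6 called lower. Snap25 (-3.63), Syt1 (-4.00), Nefl (-5.66) and Rbfox3 (-1.01), which serve vesicle release, axonal structure and splicing in neurons, were lower, while Map2 (-0.23) and Tubb3 (0.35) did not pass either rule. Beside these values Dpf3 was at -2.69, Actl6b at -0.66, Dpf1 at -0.58 and Ss18l1 at -0.49. The sum of these 6 markers was 779 TPM in tumor GB344, 1059 TPM in GB359 and 911 TPM in GB370, and 3255 to 4067 TPM in controls. It was lowest in GB344, the tumor in which Actl6b, Dpf3, Ss18l1 and Smarca2 were lowest. Dpf1 went the other way and was highest in GB344, at 19.3 TPM. Among tumors, the Purkinje (49.9 TPM) and granule neuron (917 TPM) marker sums were also lowest in GB344. The inhibitory interneuron sum was highest there, at 185 TPM. The part of neuron content in the levels of these genes was not tested.

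**Figure D4:**
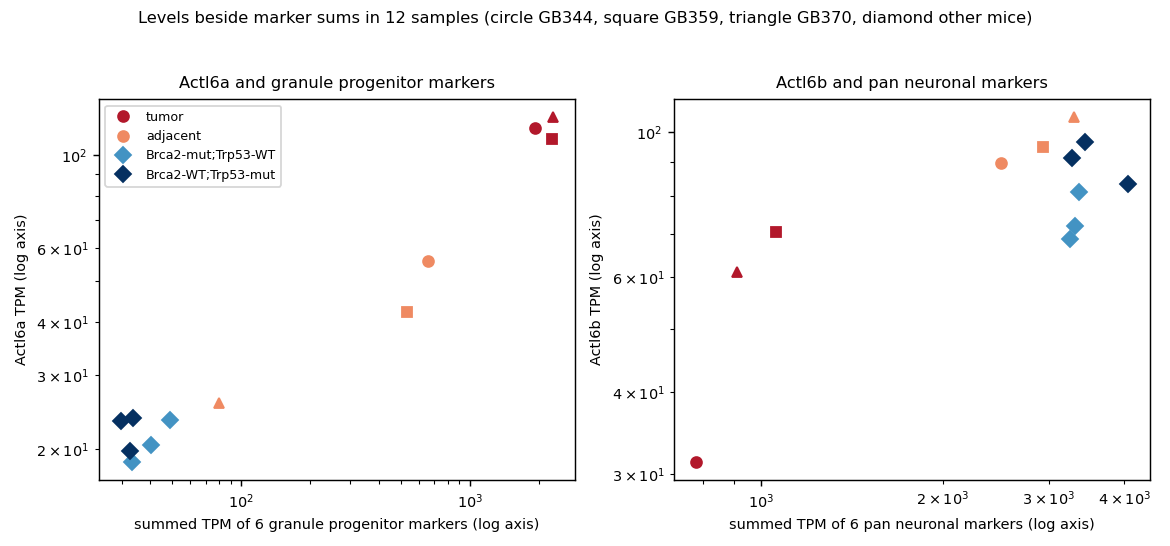
Actl6a TPM against the summed TPM of 6 granule progenitor markers (left) and Actl6b TPM against the summed TPM of 6 general neuronal markers (right) in 12 samples, all axes logarithmic; colors mark the groups and symbols the mice. On the left the adjacent samples lie between controls and tumors in the order GB370, GB359, GB344; on the right tumors GB359 and GB370 hold 70.5 and 61.2 TPM of Actl6b at a low marker sum.

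The other subunits of BAF, PBAF and ncBAF complexes were examined as a list of 21 measured genes. Of these, 10 were called higher and 3 lower in tumors than in controls, and by the second rule 14 were higher and 5 lower. Of all genes tested 14.4% were called higher and 21.5% lower, and 31.8% and 39.5% by the second rule. The median log2 difference was 0.98, beside -0.11 over all genes. The largest rise was that of Smarcc1 (BAF155), a core scaffold subunit, with 103 ± 4.7 TPM in tumors (SD, n = 3) and 23.9 ± 2.4 TPM in controls (SD, n = 6), a log2 difference of 2.06. The related scaffold Smarcc2 (BAF170) was lower, at -0.64 on the log2 scale, and passed the second rule only. Smarce1 (BAF57) rose by 1.71 on the log2 scale. Smarcd3 (BAF60c) showed the largest fall, from 72.8 ± 5.5 TPM in controls to 17.8 ± 2.2 TPM in tumors, a log2 difference of -1.98, whereas its paralogue Smarcd1 (BAF60a) was higher by 0.98 under the second rule. Bcl7c (1.32) and Bcl7a (1.15) were called higher and Bcl7b (-1.11) lower. Brd7 (1.27), a bromodomain subunit of PBAF, Actb (1.21), the actin that BAF shares with the cytoskeleton, and Bcl11b (1.14) were also called higher. Paralogues among the Smarcc, Smarcd and Bcl7 genes thus moved in opposite directions, as members of the switch did.

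**Figure D5:**
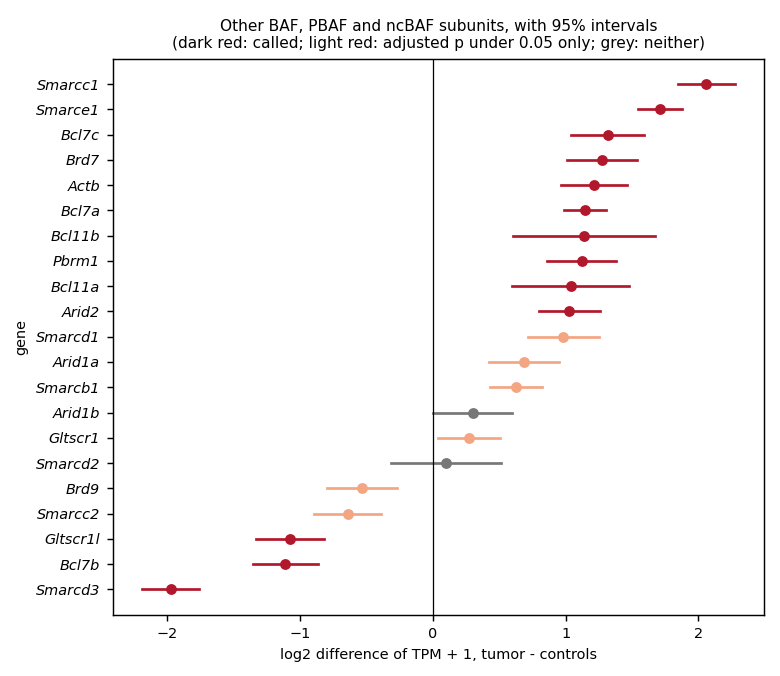
Log2 differences of TPM + 1 between tumors and controls (horizontal axis) with 95% intervals for 21 other BAF, PBAF and ncBAF subunits (vertical axis, ordered by size); dark red marks called genes, light red those with an adjusted p under 0.05 only, grey the others. Smarcc1 (2.06) and Smarcd3 (-1.98) mark the ends of the range.

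Of 9 genes around REST and the PTBP splicing repressors, 4 were called higher in tumors and 7 passed the second rule, all upward, beside 14.4% and 31.8% of all genes. Their median log2 difference was 0.90, against -0.11 over all genes. Rcor2, a corepressor of the REST complex, was at 308, 305 and 202 TPM in the tumors and 2.02 to 5.18 TPM in controls. Ptbp1, which represses neuronal splicing and is itself a target of miR-124, was at 304, 267 and 310 TPM in the tumors and 36.8 to 46.1 TPM in controls, a log2 difference of 2.73. The deacetylases Hdac2 (1.78) and Hdac1 (1.40) were the other called genes. Rest itself was low everywhere, at 2.29 to 2.97 TPM in tumors and 1.85 to 2.59 TPM in controls, and passed neither rule (limma adjusted p = 0.170).

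Tumors were next compared with adjacent cerebellum of the same mice. By the first rule 3 members were called: Actl6a higher (4.76% of all genes were called higher), Dpf3 and Smarca2 lower (18%). Of all called genes 20.9% were higher, a share of 37.4% under median-of-ratios scaling and 43.6% under quantile normalization. By the second rule Ss18 was also higher (18.1% of all genes) and Actl6b and Dpf1 also lower (32.2%), which made 6 of 10. Phf10, Dpf2, Smarca4 and Ss18l1 did not pass. The difference in Phf10, 0.60 (95% interval 0.08 to 1.12), had an adjusted p of 0.0554 and passed with the mice paired (adjusted p = 0.0128 with the mouse as replicate block); the paired fit changed no other member under either rule.

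Adjacent cerebellum held Actl6a at 56.0 TPM in GB344, 42.4 TPM in GB359 and 25.8 TPM in GB370, below every tumor. The log2 difference between tumor and adjacent tissue was 1.53 ± 0.27 (SE, n = 3 and 3; limma adjusted p = 0.00372), and within mice it was 1.04 in GB344, 1.35 in GB359 and 2.22 in GB370. Dpf3 was at 40.6, 41.0 and 54.2 TPM in adjacent tissue. Its within-mouse differences were -3.23, -2.38 and -2.45 and the fitted one -2.69 ± 0.32 (SE; limma adjusted p = 0.000811). Smarca2 was at 152, 149 and 190 TPM in adjacent tissue, and its difference of -1.53 ± 0.34 (SE) lay just inside the rule, with an adjusted p of 0.00987.

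The calls of this comparison were less secure than those against controls. Only Dpf3 remained called without adjacent GB359 or without tumor GB370, and only Actl6a when adjacent GB344 and GB359, the samples with the most progenitor marker RNA, were both left out (log2 difference 2.13, limma adjusted p = 0.00746). In that fit Dpf3 was at -2.96 with an adjusted p of 0.0198; a lone adjacent library is then assumed to vary like the tumors. Smarca2 kept its direction in the 17 settings tried but lost its call in 11 of them, with adjusted p up to 0.0783. Actl6a lost its call in 4 settings, each without 1 library, and Dpf3 in 1, while Ss18 gained a call in 3, namely under median-of-ratios scaling, under quantile normalization and without adjacent GB344. Actl6b and Dpf1 differed by -0.90 and -0.73 on the log2 scale and were lower in 3 of 3 mice, but they missed the second rule in 8 and 9 of the 17 settings, with adjusted p up to 0.182 and 0.274. Ss18 missed it in 1, without adjacent GB359 (adjusted p = 0.0515).

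Adjacent cerebellum was then compared with the controls, which it shares with the first comparison. No member was called by limma, with 3 at an unadjusted p under 0.05 (Actl6a, Smarca4 and Ss18), while 0.224% of all genes were called higher and 0.0124% lower. Actl6a was the only member that passed the second rule (10.1% of all genes higher, 5.57% lower), at 0.85 ± 0.20 on the log2 scale (SE, n = 3 and 6; limma adjusted p = 0.0242). Against the same controls it differed by 2.38 in tumors. Its adjacent levels followed the granule progenitor markers: it was highest in GB344, where the progenitor Atoh1 was at 59.4 TPM, next in GB359 (50.5 TPM), and lowest in GB370 (5.0 TPM), while Atoh1 did not exceed 0.212 TPM in controls. The part of progenitor or tumor cells in the adjacent Actl6a level was not tested. Without GB370 Actl6a was called (1.15, limma adjusted p = 0.000533), without GB344 and GB359 the difference was 0.25 (adjusted p = 0.410), and without GB344 or GB359 alone the adjusted p was 0.0905 and 0.0778.

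The remaining 9 members differed by -0.004 (Dpf3) to 0.37 (Ss18) between adjacent and control cerebella. Ss18 was at 70.0, 48.5 and 37.0 TPM in adjacent GB344, GB359 and GB370, the same order as Actl6a, and GB370 lay within the controls (95% interval of the difference 0.007 to 0.74). The 95% interval for Dpf3, -0.30 to 0.29, excludes a change of the size seen in tumors. For Smarca2 it was -0.14 to 0.22 and for Actl6b -0.008 to 0.49.

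The control genotypes were compared with each other to ask whether the subunits differed between them. No group was wild type for both genes, so this comparison cannot show what either lesion alone does. No member passed either rule between Brca2-mut;Trp53-WT and Brca2-WT;Trp53-mut cerebella; of all genes 0.0578% were called and 0.456% passed the second rule, in either direction. The 10 differences ran from -0.01 (Smarca4) to -0.33 (Dpf3), beside a median of -0.07 over all genes, and 5 of them changed sign under median-of-ratios scaling. At an unadjusted p under 0.05 in limma, 2 members passed, Actl6b and Dpf3. Dpf3 was at 42.9, 39.4 and 38.0 TPM in GB361, GB508 and GB512 and at 53.6, 48.7 and 49.4 TPM in GB517, GB519 and GB520. The adjusted p of Dpf3 in limma was 0.0939. Actl6b was at 72.0, 68.7 and 81.1 TPM and at 96.7, 91.3 and 83.2 TPM in the same mice, a log2 difference of -0.29 (95% interval -0.49 to -0.09; limma adjusted p = 0.145). Choroid plexus markers differed widely in the same samples, at 12.1 to 863 TPM in Brca2-mut;Trp53-WT and 3936 to 5147 TPM in Brca2-WT;Trp53-mut cerebella, and their part in these differences was not tested. The Brca2-mut;Trp53-mut genotype was sampled only in tumor-bearing mice, so against controls the combined genotype and the tumor cannot be told apart. Tumor and adjacent tissue share the genotype label of the mouse. Brca2 loss is conditional, however, and its extent in the adjacent cells is not known from these data. Between those tissues of the same mice Dpf3 differed by -2.69 and Smarca2 by -1.53 on the log2 scale. Between adjacent and control cerebella they differed by -0.004 and 0.04. Actl6a, also called between tumor and adjacent tissue, passed the second rule between adjacent and control cerebella. The part of the genotype in these differences was not tested.

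The order of levels differed between the tissues. In controls it ran Smarca2, Smarca4, Actl6b, Dpf2, Phf10, Dpf3, Ss18, Ss18l1, Actl6a and Dpf1 by mean TPM. Of neighbors in that order, the sample ranges overlapped except between Smarca2 and Smarca4 and between Ss18 and Ss18l1. Actl6a, at rank 9 in controls and rank 8 in adjacent cerebellum, was at rank 2 in tumors, where its range overlapped that of Smarca4 and lay above that of Ss18. Dpf3 was last in tumors, below Dpf1 in every tumor.

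The genes whose log2 levels over the 12 samples were most like those of Actl6a were BC030867, Hnrnpr, Ybx3, Bard1 and Rnaseh2b, with Pearson r from 0.998 to 0.997 among 16498 genes. For Actl6b they were Rnf167, Cacna1c, Arfgap1, Tmem63b and Tspoap1, with r from 0.987 to 0.970. Within the set, Actl6a was most like Ss18 (r = 0.984) and Actl6b most like Ss18l1 (r = 0.937), while Actl6a and Actl6b had r = -0.60 and Dpf1 and Actl6b r = 0.42. The 12 samples fall into tumor and non-tumor groups and share mice, so these values describe the pattern over groups and are given with no test.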

How the data were processed

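Poly(A) RNA of mouse medulloblastoma, adjacent cerebellum and control cerebella was sequenced in 12 samples. The authors deposited TPM for 24091 genes, made with Salmon 0.8.1 on mm10 transcripts per the labels and the study's methods and summed to genes; TPM keep no depth, so no counting error can be given. TPM shift when abundant RNAs change: the gene Mir6236 took 4.25% to 11.5% of each sample. Columns were matched to samples by title, with no identical pair and 0 columns unused.

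TPM were taken as log2(TPM + 1). For each comparison, a gene entered the test if 3 or more of the compared samples reached 1 TPM, which kept 15575 to 16241 genes. The linear models of limma 3.58.1 (R 4.3.3), with a mean-variance trend in eBayes, gave p-values, and these were adjusted by the Benjamini-Hochberg method across every gene kept. On this scale fold changes of low genes are understated. The first rule (adjusted p under 0.01, absolute log2 difference of at least 1) takes the study's thresholds; the second is an adjusted p under 0.05. Each fit used only the groups compared, and the code was tested on simulated data. Replicates are separate mice. Tumor and adjacent samples pair by mouse number in the titles (correlation of deviations 0.249, 0.176 and 0.152); the main fit has no block.

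The members and gene lists were chosen with earlier results of these data known. All 10 members are named. Of the other lists, genes called in tumors or with the largest changes (up to 8) are named, and for Actl6a and Actl6b the 5 most correlated genes. Other genes were named after their values were seen. Positions are from RefSeq (GRCm38.p6) for all 10 members, promoters for 9. Alternatives covered the pseudocount, filter, scaling, trend, groups fitted, controls, block, thresholds and each sample left out. Python 3.11.15 with pandas 2.3.3 was used for the descriptions.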

Additional observations from a re-analysis of the deposited data

Results flagged for a closer look

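Among the 6 control cerebella, the level of GB508 (Brca2-mut;Trp53-WT) lay apart from the others for 2 of the 10 members by Dixon's test. Phf10 was at 42.6 TPM in GB508, with the gap to the next control making up 0.650 of the whole range on the log2 scale. Dpf2 was at 56.0 TPM in the same library, with a gap of 0.652 of the range. Both were the lowest control values, and chance alone marks about 1 in 20 groups tested. GB508 also held the lowest control level of Actl6a, Actl6b, Dpf1, Smarca4, Ss18 and Ss18l1. Mir6236 took 11.5% of this library, the highest share of the 12 samples, and its part in these levels was not tested. Leaving out GB508 changed no call of a member in tumors against controls.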

How the results depend on the processing

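In tumors against controls, no member changed direction or call in 20 settings that kept the first rule, and 4 members were called in each; the weaker rule gave 10 members and 11573 genes, and leaving out 1 library gave 5641 to 5913 genes. In tumors against adjacent cerebellum, 3607 genes and 3 members were called. With the mouse as replicate block there were 3542 genes and 3 members, and this paired fit changed no call by the first rule. Leaving out 1 library gave 2377 to 3482 genes and 1 to 3 members, the weaker rule 7980 genes and 6 members, and leaving out the adjacent libraries of GB344 and GB359, chosen after seeing the data, 1098 genes and 1 member. Scaling moved the median log2 difference of all genes here from -0.14 to 0.05 (median of ratios) or 0.14 (quantile), and in tumors against controls from -0.11 to -0.01 or 0.06.

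In adjacent against control cerebella, 38 genes were called. The count was 4 without the filter, 4 with Brca2-mut;Trp53-WT controls alone, 10 without the trend, 15 without adjacent GB344 and GB359, 59 under quantile normalization, 60 without Mir6236, 63 under median-of-ratios scaling and 2524 under the weaker rule (1 member). Leaving out 1 library gave 0 to 586 genes and 0 to 1 member, the highest without adjacent GB370. Between the control genotypes 9 genes were called. The count was 2 with a pseudocount of 0.01, 3 without the filter, with a 5 TPM filter, under both scalings and without the trend, 4 without Mir6236, 21 with all groups in the fit, 71 under the weaker rule and 4 to 29 without 1 library. The cause of these shifts was not tested.

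Sign changes were confined to uncalled members of these last comparisons. In adjacent against control cerebella, Smarca2 was -0.054 under median-of-ratios scaling, Dpf3 0.16 with Brca2-mut;Trp53-WT controls alone, and without adjacent GB344 and GB359 Phf10 was -0.15, Dpf3 0.26, Smarca4 -0.011 and Ss18 -0.056. Leaving out 1 library gave -0.14 to 0.067 for Dpf3, -0.012 to 0.34 for Phf10 and -0.070 to 0.10 for Smarca2. Between control genotypes, median-of-ratios scaling gave Actl6a 0.018, Dpf1 0.031, Smarca2 0.038, Smarca4 0.10 and Ss18l1 0.087, quantile normalization gave Actl6a 0.011, Dpf1 0.031, Smarca4 0.043 and Ss18l1 0.073, and removing Mir6236 gave Smarca4 0.0062. Leaving out 1 library gave -0.18 to 0.062 for Dpf1, -0.044 to 0.038 for Smarca4 and -0.078 to 0.025 for Ss18l1. Without depth, TPM set no counting limit on low members such as Dpf3 in tumors.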
